A study of Danio rerio with 3 samples.

Results

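Notch receptors and their canonical ligands were followed in messenger RNA of whole zebrafish larvae at 3 days post-fertilization. The set holds 10 of the 27882 gene identifiers in the deposited tables, listed by Ensembl identifier for what they encode. It comprises 3 receptor genes (a notch1 gene, notch2 and notch3), 3 Delta ligand genes (dlb, dlc and dll4) and 4 Jagged ligand genes (jag1a, jag1b, jag2a and jag2b). The name table gives the first receptor only as NOTCH1 and does not say which zebrafish copy it is. There were 3 libraries of AB background larvae, 1 per group. The HRAS larvae carried the endothelial driver Tg(fli1ep:GAL4FF)ubs3 with Tg(UAS:eGFP-HRASV12)io006, an oncogenic human HRAS fused to eGFP. The NICD larvae carried that driver with tg(UAS:NICD)kca3, which encodes the intracellular domain of a Notch receptor, the fragment that signals without a ligand. The control larvae were wild type, and no driver is named for them, so that an effect of the driver cannot be told apart from one of either transgene. Each transgene was driven in the endothelial lineage, while the RNA came from all cells of the larva. How many larvae were pooled for a library is not stated in the labels.

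Notch receptors are proteins that cross the cell membrane once and bind Delta or Jagged ligands on a neighbouring cell. Binding lets an ADAM protease and then gamma-secretase cut the receptor, and the freed intracellular domain joins RBPJ and Mastermind in the nucleus to switch on target genes of the hairy and Hey families. In vessels, Dll4 on endothelial cells signals through Notch to limit sprouting and to set arterial identity, and Notch3 is best known from the mural cells that surround vessels. Receptors and ligands are also used in many other tissues of a larva, among them the nervous system.

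The HRAS library held 41105619 corrected reads, the NICD library 21944303 and the control library 26384466. Corrected reads are the authors' estimate per gene, made of the unique reads and a part of the reads that matched several transcripts. With 1 library per group no difference could be set against a spread between replicates and no p-value is given, so each comparison is between libraries and not between conditions. A bracketed range is a 95% counting interval, which leaves out the spread between larvae and the placement of shared reads. A gene was called higher or lower when it had at least 50 reads in both libraries summed, differed at least 2-fold and had an interval that excluded 1. Of 15 marker symbols for tissues of a whole larva, 13 were matched to a name. None of these 13 identifiers was at 0 in all libraries. In HRAS over control 3 were called higher, hbbe3 at 3.78-fold, nppa at 2.74-fold and cdh5 at 2.07-fold, beside 6.09% of all genes. GNAT2 was called lower there, at 0.152, beside 4.14% of all genes. In NICD over control nppa was called higher at 2.76-fold and GNAT2 lower at 0.208, beside 3.56% and 3.12% of all genes.

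Per unit length, notch3 was the most abundant of the 9 genes with corrected reads in every library. Levels are given in RPKM, reads scaled to the length of the longest transcript and to the library total. The level of notch3 was above that of 82.3% of genes with a read in the HRAS library, 88.9% in the NICD library and 84.5% in the control library. The genes jag1a and jag2a held the last places among the 9 genes with corrected reads. In the HRAS library dlc, dlb and dll4 followed notch3 in that order, each below the one before it by more than counting error. In the NICD library dlb, dlc and jag2b came next, and neighbours among these 3 did not differ beyond counting error. In the control library dlb, dlc and jag1b came next and each step exceeded counting error, while jag1b, notch1 and jag2b formed a group whose neighbours did not differ. The place of dll4 was 4 in the HRAS library, 6 in the NICD library and 7 in the control library.

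**Figure D1:**
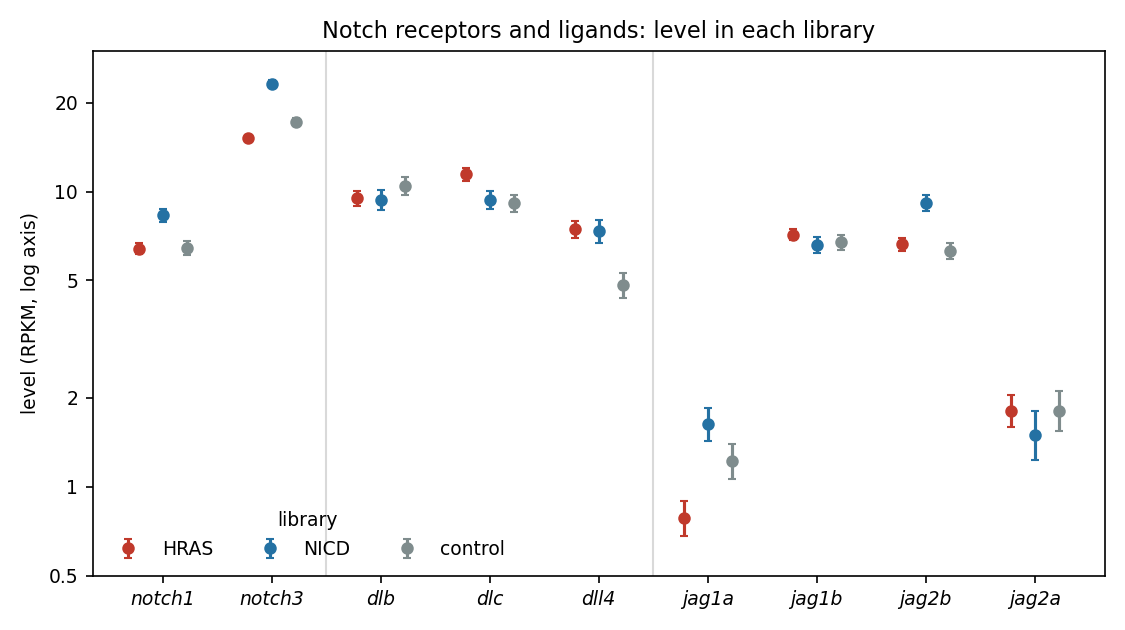
Level of the 9 genes with corrected reads in the HRAS, NICD and control libraries, in RPKM on a log axis; each point is 1 library, and bars are 95% counting intervals. The level of notch3 is highest in the NICD library at 23.2 RPKM, dll4 stands lowest in the control library at 4.82 RPKM, and jag1a is lowest in the HRAS library at 0.783 RPKM.

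The receptor gene notch3 (ENSDARG00000052139) had 15.22 RPKM in the HRAS library, 23.2 RPKM in the NICD library and 17.2 RPKM in the control library. All of its reads were unique, 6165, 5025 and 4483 in the same order. The fold was 0.878 [0.844 to 0.912] in HRAS over control and 1.33 [1.28 to 1.39] in NICD over control, so the libraries lay on opposite sides of the control beyond counting error, though neither reached 2-fold. Between the transgenic libraries, which share the driver, the fold of HRAS over NICD was 0.659 [0.634 to 0.684].

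The gene notch1 (ENSDARG00000052094) encodes a Notch1 receptor, the type best known from the endothelium. It had 6.41 RPKM in the HRAS library, 8.30 RPKM in the NICD library and 6.42 RPKM in the control library. The HRAS library was level with the control, at a fold of 0.992 [0.926 to 1.06], and the NICD library stood at 1.28 [1.19 to 1.38]. HRAS over NICD was 0.776 [0.725 to 0.831]. Nearly all of these reads were shared between its 3 annotated transcripts or with other genes: only 20 reads in the HRAS library, 17 in the NICD library and 17 in the control library were unique. On those unique reads alone the interval of NICD over control ran from 0.567 to 2.46, which is too wide to place the gene. That of HRAS over NICD, from 0.318 to 1.3, included 1. Whether reads of the NICD transgene were placed on notch1 was not tested.

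The gene notch2 (ENSDARG00000043130) was listed at 0 corrected reads and 0 RPKM in all 3 libraries, and 0 of its reads were unique. The tables nevertheless entered 9885 non-unique reads for it in the HRAS library, 7179 in the NICD library and 7761 in the control library. Set against the scaled library total, as CPM, these entries came to 240.5 in the HRAS library, 325.3 in the NICD library and 295.8 in the control library, so the NICD library held the most and the HRAS library the least. The ratio of these entries was 0.813 in HRAS over control and 1.1 in NICD over control. The entries can hold 1 read several times, so no counting interval is given for them. The 0 of corrected reads therefore does not measure the level of notch2. In the control library 28 identifiers had 0 corrected reads with more than 1000 non-unique entries, and 4 of them, notch2 included, had at least 3 transcripts.

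Among the Delta ligands dll4 (ENSDARG00000070425), the endothelial ligand, stood apart from the control in both transgenic libraries. It had 7.45 RPKM in the HRAS library, 7.33 RPKM in the NICD library and 4.82 RPKM in the control library, from 971, 510 and 403 reads that were all unique. The fold was 1.54 [1.37 to 1.73] in HRAS over control and 1.5 [1.32 to 1.72] in NICD over control, and both are set against the same control library. Between the transgenic libraries it was 1.02 [0.917 to 1.14], an interval that includes 1.

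The gene dlc (ENSDARG00000002336), a Delta ligand that in zebrafish also acts in the somite clock, had 11.4 RPKM in the HRAS library, 9.38 RPKM in the NICD library and 9.14 RPKM in the control library. Its fold in HRAS was 1.24 [1.14 to 1.35] over control and 1.23 [1.12 to 1.34] over NICD, while NICD over control was 1.01 [0.918 to 1.12]. The HRAS library was thus above both others beyond counting error. The gene dlb (ENSDARG00000004232), a further Delta ligand, had 9.49 RPKM in the HRAS library, 9.38 RPKM in the NICD library and 10.5 RPKM in the control library. Its folds over control were 0.902 [0.825 to 0.987] in HRAS and 0.888 [0.799 to 0.986] in NICD. On unique reads the intervals of dlb were 0.836 to 1.01 and 0.810 to 1.01, and both include 1.

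Of the Jagged ligands jag1a (ENSDARG00000030289) had the lowest level in the HRAS library and differed most between libraries. It had 0.783 RPKM in the HRAS library, 1.63 RPKM in the NICD library and 1.22 RPKM in the control library, from 215, 239 and 215 corrected reads. The fold was 0.638 [0.526 to 0.775] in HRAS over control and 1.32 [1.09 to 1.60] in NICD over control. HRAS over NICD was 0.483 [0.400 to 0.583], the only comparison in which any of the 10 genes passed the 2-fold rule. Unique reads numbered 0 in the HRAS library, 2 in the NICD library and 0 in the control library, so no part of this difference was measured on unique reads. Its non-unique entries gave a ratio of 0.52 in HRAS over NICD, just short of 2-fold, and the interval of the corrected reads also spans that limit.

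The gene jag2b (ENSDARG00000021389) encodes a ligand of the Jagged2 type. It had 6.63 RPKM in the HRAS library, 9.15 RPKM in the NICD library and 6.29 RPKM in the control library. Only NICD stood off the control beyond counting error, with a fold of 1.44 [1.32 to 1.57], against 1.05 [0.963 to 1.14] for HRAS over control. HRAS over NICD was 0.728 [0.673 to 0.788]. The gene had 25, 17 and 19 unique reads in the HRAS, NICD and control libraries. On these NICD over control was 1.06 [0.517 to 2.15] and HRAS over NICD 0.792 [0.415 to 1.58]. The gene jag1b (ENSDARG00000013168), a ligand that patterns the facial skeleton in zebrafish, had 7.15 RPKM in the HRAS library, 6.60 RPKM in the NICD library and 6.73 RPKM in the control library. Both intervals against the control included 1. Its fold in HRAS over NICD was 1.09 [1.01 to 1.18], and 1.13 [1.04 to 1.22] on unique reads. The gene jag2a (ENSDARG00000014246) had 1.81 RPKM in the HRAS library, 1.498 RPKM in the NICD library and 1.81 RPKM in the control library. With 112 reads in the NICD library its fold over control, 0.818 [0.637 to 1.05], was not distinguishable from 1 at this depth.

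**Figure D2:**
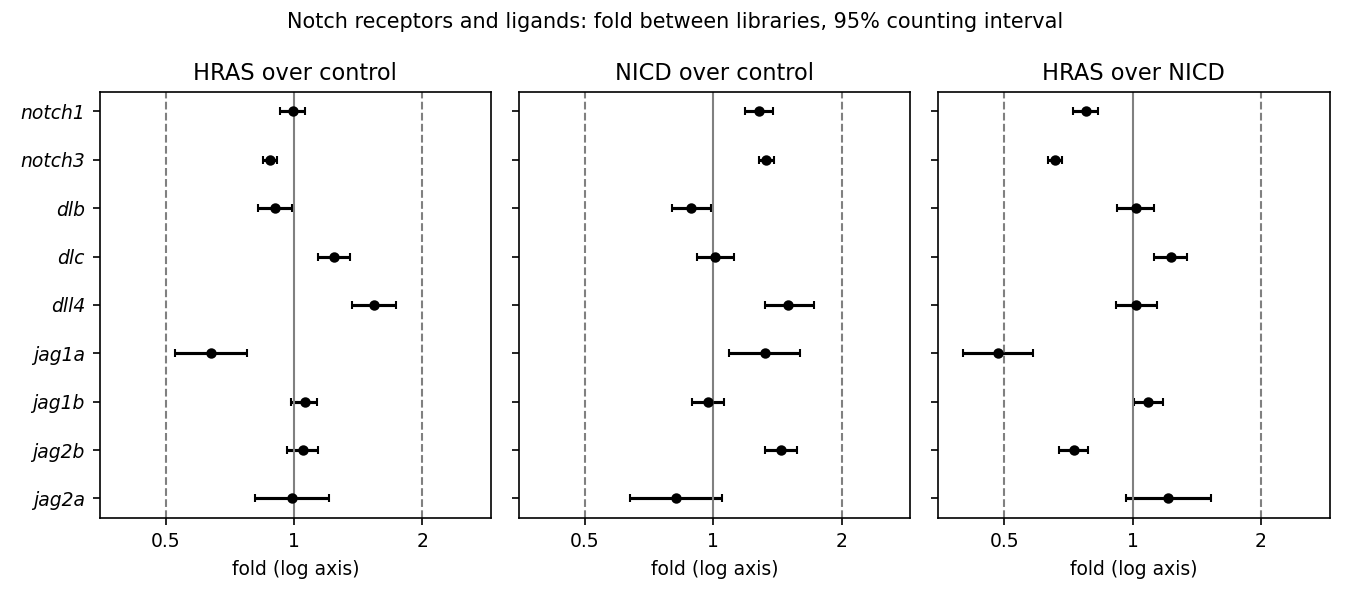
Fold between libraries for the 9 genes with corrected reads, on a log axis, in HRAS over control, NICD over control and HRAS over NICD; points are folds, bars are 95% counting intervals, the solid line marks 1 and the dashed lines mark 2-fold. Only jag1a in HRAS over NICD, at 0.483, lies beyond a dashed line.

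Under the 2-fold rule 0 of 9 measured genes were called in HRAS over control, where 10.2% of the 20873 genes tested were called, 6.09% higher and 4.14% lower. In NICD over control the count was 0 of 9, against 6.68% of 20061 genes, 3.56% higher and 3.12% lower. In HRAS over NICD 1 of 9 was called, jag1a, against 11.3% of 20856 genes, 5.15% higher and 6.19% lower. Intervals that exclude 1 were common in these deep libraries, at 62.3% of genes in HRAS over control, 56.6% in NICD over control and 63.2% in HRAS over NICD. By that measure 2 of the 9 genes lay above and 3 below in HRAS over control, beside 31.5% and 30.8% of all genes. In NICD over control 5 lay above and 1 below, beside 30.8% and 25.8%. In HRAS over NICD 2 lay above and 4 below, beside 32.2% and 31.0%. The median log2 ratio was -0.01 in HRAS over control, 0.35 in NICD over control and 0.02 in HRAS over NICD, beside 0.003, 0.034 and 0.013 over all genes tested. On unique reads only 6 of the genes reach 50 reads, without notch1, jag1a and jag2b. Over these 6 the NICD over control median was -0.05 and the intervals of 2 genes excluded 1.

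Among the 7 ligand genes of the set, Delta ligands outweighed Jagged ligands in every library. They made up 63.4% of the summed ligand RPKM in the HRAS library, 58.0% in the NICD library and 60.3% in the control library. Of the same sum over all 7 ligands dll4 held 16.7% in the HRAS library, 16.3% in the NICD library and 11.9% in the control library. The share of dlb was 21.2% in the HRAS library, 20.9% in the NICD library and 25.8% in the control library. The share of jag2b was 14.8% in the HRAS library, 20.3% in the NICD library and 15.6% in the control library. Summed receptor RPKM was 0.483 of summed ligand RPKM in the HRAS library, 0.701 in the NICD library and 0.585 in the control library. The gene notch2 contributed 0 to each receptor sum, although its level was not measured. Both identifiers named DLL1, a Delta ligand, at 5.153 and 8.995 RPKM in the control library, are outside the ligand sums. The level of dll4 relative to notch1 was 1.16 in the HRAS library, 0.883 in the NICD library and 0.750 in the control library.

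**Figure D3:**
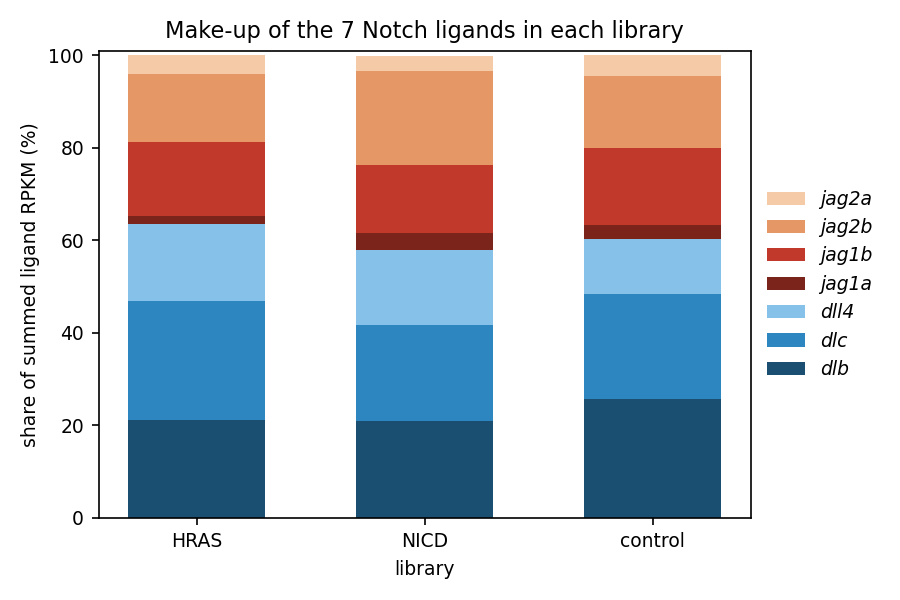
Share of each of the 7 ligand genes in their summed RPKM, in percent, with 1 stacked bar each for the HRAS, NICD and control libraries. The dll4 segment is 16.7% in the HRAS library and 16.3% in the NICD library against 11.9% in the control library, and the jag2b segment is widest in the NICD library at 20.3%.

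The genes differed in how their reads had been placed. All reads of notch3, dll4 and jag2a were unique, and unique reads made up 80.1% to 94.9% of corrected reads for dlb, dlc and jag1b. For jag2b, notch1 and jag1a at most 2.1% were unique. In dlb, dlc and jag2b, which have 2 transcripts each, 2.0 non-unique entries stood behind each read added to the unique ones, equal to the number of transcripts. For notch1, with 3 transcripts, it was 2.70 to 2.73. For jag1a, also with 3 transcripts, it was 3.46 to 3.70, more than its number of transcripts. The gene jag1b has 1 transcript, so its 118 to 183 non-unique entries cannot have been shared among transcripts of its own.

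**Figure D4:**
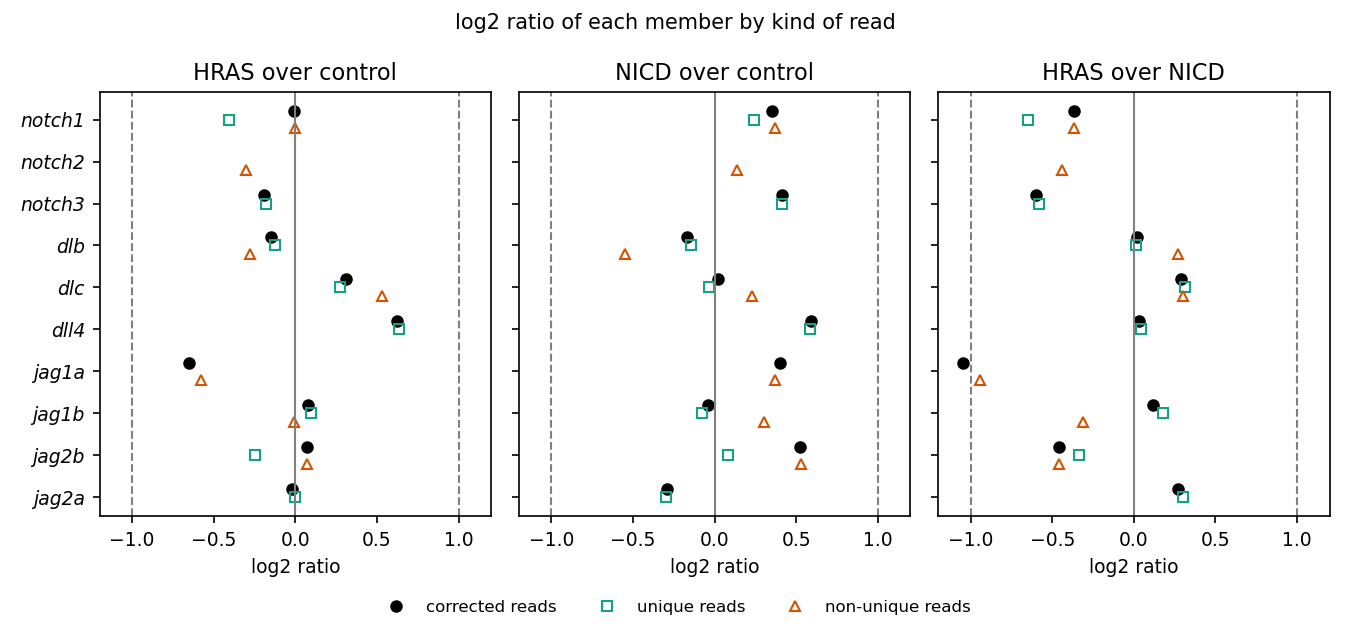
log2 ratio of each of the 10 genes in the 3 comparisons by kind of read: corrected reads (filled circles), unique reads (open squares) and non-unique entries (open triangles). For notch3 and dll4 corrected and unique reads nearly coincide, notch2 has non-unique entries only, and jag1a has no unique ratio.

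Markers of the endothelium moved with the HRAS library. Of 13 endothelial markers measured, 11 were called higher in HRAS over control, where 6.09% of all genes were called higher. In NICD over control 0 were called, beside 6.68% of all genes. There 6 intervals lay above 1 and 2 below, beside 30.8% and 25.8% of all genes. The median log2 ratio of the 13 markers was 1.63 in HRAS over control and 0.08 in NICD over control. Farthest from the control in HRAS were ecscr at 9.07-fold [7.22 to 11.7], ERG at 5.8-fold [4.48 to 7.71] and TIE1, an endothelial receptor kinase, at 4.19-fold [3.9 to 4.51]. The summed level of the 13 markers was 188 RPKM in the HRAS library, 70.1 RPKM in the NICD library and 60.9 RPKM in the control library. Relative to that sum dll4 stood at 3.96% in the HRAS library, 10.5% in the NICD library and 7.91% in the control library. In the same order notch1 stood at 3.41%, 11.8% and 10.5%, and notch3 at 8.09%, 33.1% and 28.3%. The lower value in the HRAS library was thus not particular to dll4. In RNA of whole larvae more cells of a type and more RNA per cell cannot be told apart. Arterial markers summed to 44.2 RPKM in the HRAS library, 39.5 RPKM in the NICD library and 51.6 RPKM in the control library. AQP8, a water channel, carried that order: the other 7 summed to 28.8, 27.1 and 26.5 RPKM in the HRAS, NICD and control libraries. The median log2 ratio of the arterial list was 0.07 in HRAS over control and 0.06 in NICD over control. In HRAS over control 0 of 8 were called, beside 10.2% of all genes. In NICD over control AQP8 was called lower of 7 at 0.490 [0.425 to 0.564], beside 3.12% of all genes called lower. Neither the part of the endothelial nor that of the arterial markers in the dll4 values was tested.

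Markers of other tissues in which Notch genes are used also differed. Neuronal markers summed to 211 RPKM in the HRAS library, 335 RPKM in the NICD library and 332 RPKM in the control library. Their median log2 ratio stood at -0.57 in HRAS over control and 0.27 in NICD over control. In either 0 of 5 passed the 2-fold rule, beside 10.2% and 6.68% of all genes. Their intervals lay below 1 for 5 in HRAS over control, beside 30.8% of all genes. In NICD over control 4 lay above 1 and 1 below, beside 30.8% and 25.8%. Without tubb5, their most abundant gene, the sums were 106, 199 and 147 RPKM in the HRAS, NICD and control libraries. Cartilage markers summed to 386 RPKM in the HRAS library, 746 RPKM in the NICD library and 510 RPKM in the control library. Against the control 0 of 5 were called in either, beside the same 10.2% and 6.68%. Cartilage intervals lay below 1 for 5 in HRAS over control, and above 1 for 4 and below 1 for 0 in NICD over control. Mural cell markers summed to 286, 257 and 249 RPKM in the HRAS, NICD and control libraries. Without the more abundant identifier named TAGLN, a smooth muscle actin-binding protein, the markers summed to 153, 193 and 188 RPKM. Their median log2 ratio in HRAS over control was -0.25, with intervals above 1 for 3 and below 1 for 7 of 10. The more abundant TAGLN at 2.14-fold [2.04 to 2.24] and rgs5b at 2.06-fold [1.6 to 2.7] were called higher, against 6.09% of all genes, and so went against most of the list. The other identifier named TAGLN stood at 0.73 [0.663 to 0.803], on the side of most of the list. Markers of neural progenitors and radial glia summed to 614, 509 and 743 RPKM in the same order. Without the more abundant identifier named FABP7, which carried that sum, the markers summed to 182, 189 and 171 RPKM. The median log2 ratio of the whole list was -0.24 in HRAS over control and -0.11 in NICD over control. In either 0 of 10 were called, beside 10.2% and 6.68% of all genes. No marker on these lists was at 0 in all libraries. Inner ear and hair cell markers had medians of -0.56 in HRAS over control and -0.08 in NICD over control. In either 0 of 7 were called, beside 10.2% and 6.68% of all genes. Their intervals lay below 1 for 7 in HRAS over control, and above 1 for 2 and below 1 for 3 in NICD over control. The neuronal, cartilage and mural cell medians lay below 0 in HRAS over control and above 0 in NICD over control. These are the sides on which notch3 and jag1a lay, though the mural median in NICD over control was only 0.06. The neural progenitor and inner ear medians lay below 0 in both comparisons. Such sides were not particular to tissue markers. Notch target genes had medians of -0.40 and 0.24, while genes of receptor processing had 0.17 and -0.04. The part of any of these tissues in the notch3 and jag1a values was not tested.

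Genes that act on the receptors or ligands included 2 that passed the 2-fold rule in HRAS over control. The Fringe gene mfng, which extends sugars on the receptors and so alters their choice of ligand, had 6.29 RPKM in the HRAS library, 1.42 RPKM in the NICD library and 1.86 RPKM in the control library. All of its reads were unique, and its fold was 3.35 [2.69 to 4.26] in HRAS over control and 4.41 [3.38 to 5.94] in HRAS over NICD. The other Fringe genes did not pass: LFNG stood at 1.14 [1.08 to 1.21] and RFNG at 1.03 [0.922 to 1.15] in HRAS over control. EOGT, an enzyme that adds a sugar to extracellular repeats of Notch, was called higher at 2.76-fold [2.27 to 3.39] in HRAS over control, and stood at 1.85 [1.47 to 2.35] in NICD over control. These were 1 of 14 genes of receptor processing and 1 of 7 genes of Fringe and ligand endocytosis, beside 6.09% of all genes called higher and 4.14% called lower, so the counts of these lists are no result in themselves. None of either list was called lower in HRAS over control, and none was called in NICD over control, where 6.68% of all genes were.

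The proteases and gamma-secretase subunits differed by less. The ADAM protease gene adam10a stood at 1.39 [1.34 to 1.44] in HRAS over control and 0.894 [0.852 to 0.938] in NICD over control, and its copy adam10b at 0.825 [0.760 to 0.896] and 1.32 [1.21 to 1.44]. The gamma-secretase subunit gene PSENEN stood at 1.37 [1.23 to 1.51] in HRAS over control and 0.853 [0.748 to 0.972] in NICD over control. POGLUT1, which adds glucose to Notch repeats, stood at 0.958 [0.805 to 1.14] in HRAS over control and 0.664 [0.526 to 0.832] in NICD over control.

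Among antagonists and turnover genes 0 of 10 were called in any comparison. Over all genes 10.2% were called in HRAS over control, 6.68% in NICD over control and 11.3% in HRAS over NICD. The ubiquitin ligase gene CBLB stood at 1.73 [1.54 to 1.97] in HRAS over control and 1.79 [1.56 to 2.05] in NICD over control. Of 15 identifiers of the nuclear complex and its co-repressors 0 were called in any comparison. Beside those shares of all genes, the counts of both lists are no result in themselves. One of 2 identifiers named RBPJ, the DNA-binding partner of the intracellular domain, stood at 1.63 [1.39 to 1.93] in HRAS over control and 1.32 [1.09 to 1.59] in NICD over control, and the other at 1.03 [0.941 to 1.12] and 0.870 [0.781 to 0.967]. MAML3, a Mastermind co-activator, stood at 1.02 [0.927 to 1.12] in HRAS over control and 1.60 [1.45 to 1.76] in NICD over control.

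Of 12 symbols for proteins described as non-canonical Notch ligands, 7 were matched, and most of these stood lower in HRAS than in NICD. Intervals in HRAS over NICD lay below 1 for 6 and above 1 for 0, beside 31.0% and 32.2% of all genes. The interval of DLK2, at 0.908 [0.775 to 1.07], included 1. Of 7 such genes 4 were called lower and 0 higher in HRAS over NICD, where 6.19% of all genes were called lower. DNER, a neuronal surface protein, had a fold of 0.374 [0.323 to 0.432], and cntn1a, a neuronal adhesion protein, one of 0.419 [0.360 to 0.486]. The matrix genes thbs2a and mfap5 stood at 0.288 [0.236 to 0.349] and 0.439 [0.32 to 0.60], mostly on reads that were not unique. Against the control 1 of 7, thbs2a, was called lower in HRAS, at 0.345 [0.283 to 0.419], and 0 were called in NICD. DNER and cntn1a are expressed in neurons, whose markers stood at a median of -0.83 on the log2 scale in HRAS over NICD, and the part of neuronal RNA was not tested.

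Target genes of the pathway had 16 measured identifiers. In HRAS over control 0 were called higher and 1 lower, beside 6.09% and 4.14% of all genes, with a median log2 ratio of -0.40. The lower one was 1 of 2 identifiers named HES2. In NICD over control 2 were called higher, her4.5 and her12, and 1 lower, the same HES2, beside 3.56% and 3.12% of all genes. The median there was 0.24. In HRAS over NICD 0 were called higher and 3 lower, her4.5, her12 and her15.2, beside 5.15% and 6.19% of all genes, with a median of -0.57. Unique reads made up 18.8% for her4.5, 2.28% for her12 and 27.2% for her15.2 in HRAS over NICD, and 0.0% for HES2 in HRAS over control.

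**Figure D5:**
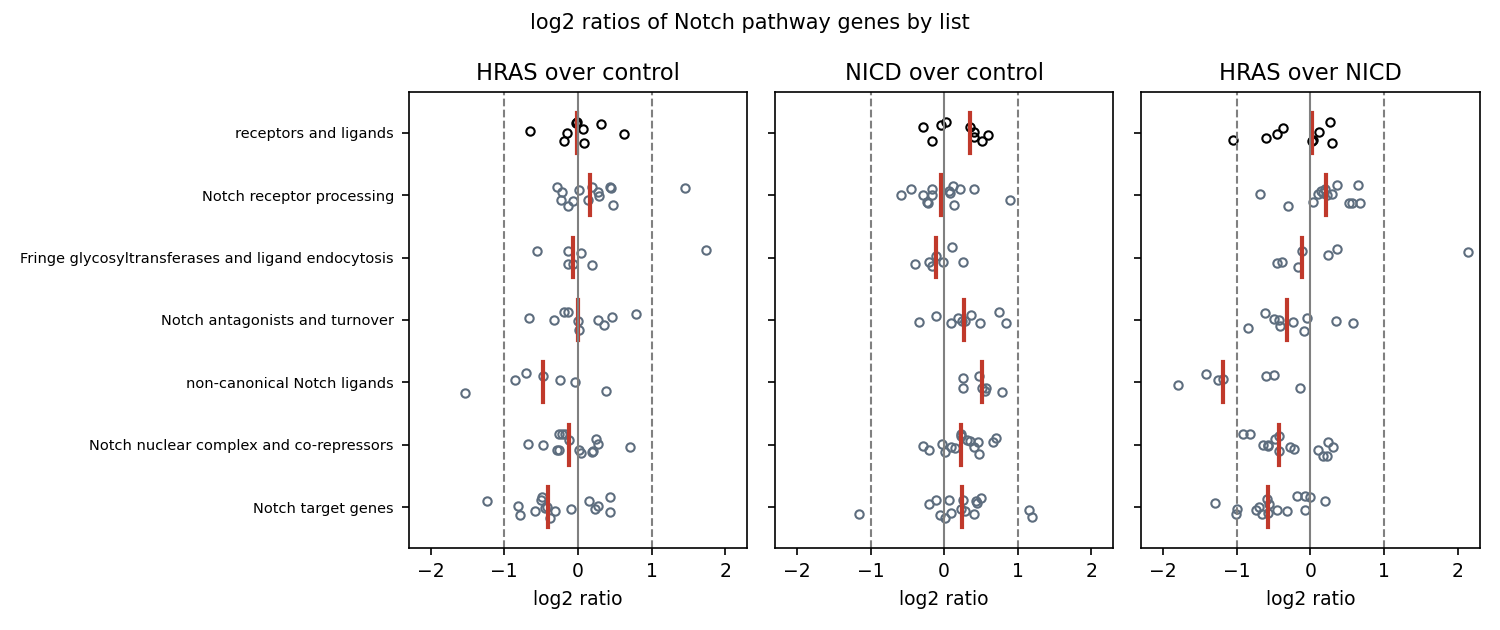
log2 ratios of Notch pathway genes in HRAS over control, NICD over control and HRAS over NICD; each circle is 1 gene that reached 50 reads over both libraries, the red bar is the median of its list, and dashed lines mark 2-fold. The receptors and ligands lie within 2-fold of the control in both transgenic libraries, mfng is the far point of its list at 2.14 in HRAS over NICD, and 4 of 7 non-canonical ligands lie beyond the lower line there.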

How the data were processed

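Total RNA of whole larvae (10 ug a library, extracted with Trizol, Illumina TruSeq RNA kit, per the labels' protocols) was sequenced on an Illumina HiSeq 2000. The series' design text names CLC bio Assembly Cell 3.2 for the analysis, with Ensembl release 63 predicted cDNAs of Zv9 as the target. The submitters' processing notes name CASAVA 1.8. Mapping parameters and strand use are not stated there, and antisense reads were not separable. The authors deposited for each library unique and non-unique read counts, an expected count (corrected total reads, as whole numbers) and RPKM. Deposited RPKM recomputed from the other columns to within 0.516% at 100 or more reads.

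Library totals of corrected reads were multiplied by TMM factors from edgeR 4.0.16 in R 4.3.3, and 0.5 reads were added to each library before a ratio was taken. Intervals are exact conditional binomial ones for folds and exact Poisson ones for levels (scipy 1.17.1). With 1 library per group, intervals cover counting error only. Reads carry no molecular identifiers, so repeat reads of 1 molecule could not be told apart, which the intervals leave out. A floor of 3 reads is about the 1-sided 95% upper limit for a count of 0. This floor corresponds to 0.0730 CPM in the HRAS library, 0.136 CPM in the NICD library and 0.114 CPM in the control library. The size rule was tested on simulated data. Lists were matched to names without regard to case, and 70.4% of identifiers had a name. Capital names do not tell gene copies apart. All 10 members are named, with the called genes of the pathway lists and some of the pathway genes with the highest and lowest ratios. Of each marker list up to 3 genes called in a direction against the control are named. The lists of ciliated cells and of pancreatic and liver progenitors are not described. Alternatives were library totals, DESeq2 1.42.0 size factors, upper quartile factors, RPKM ratios, unique reads, 5 added reads and other limits. The comparison of non-unique entries and the marker sums without their most abundant gene were added after the data had been seen. The members and lists were chosen with earlier results of these data known. No genome or sequence was used here.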

Additional observations from a re-analysis of the deposited data

Results flagged for a closer look

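The genes notch3 and jag1a lay on opposite sides of the control in the 2 transgenic libraries, each beyond counting error. For notch3 the fold was 0.878 in HRAS over control and 1.33 in NICD over control. For jag1a it was 0.638 in HRAS over control and 1.32 in NICD over control, on reads of which almost none were unique. Each group is 1 library, and the difference between the libraries was not tested beyond its counting interval.

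Signal for notch2 was found in a column outside the corrected reads, in which the gene is listed at 0. Its non-unique entries reached 325 CPM in the NICD library, against 295.8 in the control library.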

How the results depend on the processing

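No paired analysis was possible because each group holds 1 library. Under library totals, DESeq2 size factors, upper quartile factors, RPKM ratios and 5 added reads, all 135 member ratios stayed within their counting intervals, and the call of jag1a in HRAS over NICD held. On unique reads 0 members were called in HRAS over NICD, because jag1a then had too few reads. Members whose interval excluded 1 numbered 5 in HRAS over control, 6 in NICD over control and 6 in HRAS over NICD, and 3, 2 and 3 on unique reads, where fewer members were measured. The member median of 0.35 in NICD over control was -0.05 on unique reads, over fewer members. Left out there were notch1, jag1a and jag2b, at log2 ratios of 0.35, 0.40 and 0.52 on corrected reads. The others changed little from corrected to unique reads. For notch3, dlb and dlc the log2 ratios were 0.41, -0.17 and 0.02, then 0.41, -0.15 and -0.03. For dll4, jag1b and jag2a they were 0.59, -0.04 and -0.29, then 0.58, -0.08 and -0.30. With a limit of 1.5-fold 2 members were called in HRAS over control (dll4 higher, jag1a lower) and 1 in NICD over control (dll4 higher). In HRAS over NICD 2 were called (notch3 and jag1a lower). Of all genes tested, 2709 of 20873 were called higher and 2274 lower at 1.5-fold in HRAS over control. The numbers were 2133 and 1577 of 20061 in NICD over control, and 2310 and 2957 of 20856 in HRAS over NICD. The member counts at 1.5-fold are therefore no result in themselves. The log2 ratio of dll4 in NICD over control, 0.59, lay at the 1.5-fold limit. With DESeq2 factors it was 0.57 and with upper quartile factors 0.56, both short of 1.5-fold. Over all genes the higher and lower calls of HRAS over control were 1272 and 865, and became 1933 and 1550 with no minimum of reads, 669 and 452 with at least 200 reads, and 2709 and 2274 at 1.5-fold. Those of NICD over control were 715 and 626, and became 1457 and 1139, 258 and 289, and 2133 and 1577. Those of HRAS over NICD were 1075 and 1291, and became 1655 and 2095, 521 and 700, and 2310 and 2957. Depth limits jag2a, and the small share of unique reads limits every ratio on unique reads of notch1, jag1a and jag2b.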

Other observations

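Beyond the 10 genes, 3 identifiers with names of the family were looked at after their values had been seen. Not every name of the family was searched. The gene notchl, all of whose reads were unique, had 7.62 RPKM in the HRAS library, 2.40 RPKM in the NICD library and 2.46 RPKM in the control library. Its fold was 3.06 [2.46 to 3.88] in HRAS over control and 3.18 [2.50 to 4.14] in HRAS over NICD, past the 2-fold rule in both, and 0.963 [0.701 to 1.31] in NICD over control. Both identifiers named DLL1, a Delta ligand, stayed within 2-fold: one stood at 0.937 [0.862 to 1.02] in HRAS over control and 1.05 [0.956 to 1.15] in NICD over control, the other at 1.1 [0.975 to 1.23] and 1.04 [0.909 to 1.2].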
